A study of Arabidopsis thaliana with 8 samples.

Results

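AZI1 and EARLI1 stand at the head of a row of 8 related genes on Arabidopsis chromosome 4, and the 8 genes did not move together when roots were exposed to mebendazole (MBZ), an anthelmintic benzimidazole whose target in worms is tubulin. AZI1 was 5.15-fold and EARLI1 4.03-fold higher with the drug, AT4G12510 was 5.66-fold and AT4G12520 3.28-fold lower, and the outer genes AT4G12545 and AIR1 were lower by 1.1-fold and 1.28-fold. The remaining AT4G12490 and AT4G12500 were 1.68-fold and 1.75-fold higher, at levels far under those of the others. The members were chosen by locus identifier after their counts in this contrast had been seen, as the rows AT4G12470, AT4G12480, AT4G12490, AT4G12500, AT4G12510, AT4G12520, AT4G12545 and AT4G12550 of a table of 33602 genes. The changes of the 8 members are therefore given as a description, without p-values.

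The RNA came from roots of seedlings of the ecotype Col-0, which were 14 d old and had grown on plates containing dimethyl sulfoxide (DMSO), the solvent of the drug. They were moved for 4 h either to DMSO plates again or to DMSO plates with 10 µM MBZ. Each group had 4 libraries. All 8 libraries are labelled WT (wild type) and share the ecotype, the tissue, the age and the DMSO in the medium. The series holds a single dose and a single time.

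Hybrid proline-rich proteins are secreted or membrane-bound plant proteins with a signal peptide, a stretch rich in proline and a carboxy-terminal domain with 8 conserved cysteines like that of lipid transfer proteins. AZI1 (AZELAIC ACID INDUCED 1) is known for its part in azelaic acid-induced priming and systemic acquired resistance. EARLI1 was described as an aluminium-induced and cold-induced gene, and AIR1 as a gene induced by auxin in root cultures.

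All 8 genes had a single exon in the RefSeq annotation of TAIR10.1 and lay within 38719 bp of chromosome 4. The submitters' processing notes name TAIR10, and TAIR10.1 is the release of the same nuclear chromosomes used for positions and sequences here. On the minus strand, AZI1 (AT4G12470) ran from 7401087 to 7401951, EARLI1 (AT4G12480) from 7406065 to 7406994 and AT4G12490 from 7409621 to 7410406. The row continued on that strand with AT4G12500 from 7413990 to 7414955, AT4G12510 from 7417068 to 7417873 and AT4G12520 from 7420951 to 7421828. On the plus strand, AT4G12545 ran from 7434199 to 7434858 and AIR1 (AT4G12550) from 7439115 to 7439805. RefSeq also places another gene over each of EARLI1, AT4G12490, AT4G12545 and AIR1, and none of these 4 overlapping genes has a row in the count table. Whether the authors' counting used strand is not given in the sources used here, so reads from those overlaps cannot be told apart.

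Paired by closest relative, the coding sequences formed 4 pairs, and the part that all 8 share is the cysteine motif. The stretch of 54 bases from its adjacent pair of cysteine codons to its cysteine, any residue, cysteine codons shows how the members resemble and differ from each other, with the cysteine codons in capitals (RefSeq, TAIR10.1, read 5′ to 3′ along the coding strand):
AZI1: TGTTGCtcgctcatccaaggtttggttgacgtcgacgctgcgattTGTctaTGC
EARLI1: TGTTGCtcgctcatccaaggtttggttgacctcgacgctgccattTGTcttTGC
AT4G12490: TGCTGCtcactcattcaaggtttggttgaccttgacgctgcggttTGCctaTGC
AT4G12500: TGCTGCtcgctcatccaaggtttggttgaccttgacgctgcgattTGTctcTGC
AT4G12510: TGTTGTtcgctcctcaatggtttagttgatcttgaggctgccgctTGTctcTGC
AT4G12520: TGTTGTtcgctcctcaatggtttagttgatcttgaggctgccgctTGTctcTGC
AT4G12545: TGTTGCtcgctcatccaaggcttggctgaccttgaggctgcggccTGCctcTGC
AIR1: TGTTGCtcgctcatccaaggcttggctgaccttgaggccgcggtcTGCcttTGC

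AT4G12510 and AT4G12520 were identical over this stretch. Over the whole coding sequence they were 99.5% identical, AT4G12545 and AIR1 93.2%, AT4G12490 and AT4G12500 90.3%, and AZI1 and EARLI1 84.1%. Identity among AZI1, EARLI1, AT4G12490 and AT4G12500 ran from 76.4% to 90.3%, and between members of different groups from 42.9% to 59.8%. The 4 AZI1-type genes encode 161, 168, 182 and 177 codons, of which proline codons made up between 24.7% and 27.6% of the part before the cysteine motif. That share was 8.89% in both AT4G12510 and AT4G12520 (129 codons each), 5.26% in AT4G12545 (108 codons) and 7.41% in AIR1 (111 codons). The proline-rich stretch that gives hybrid proline-rich proteins their name was thus present in 4 of the 8 genes.

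**Figure D1:**
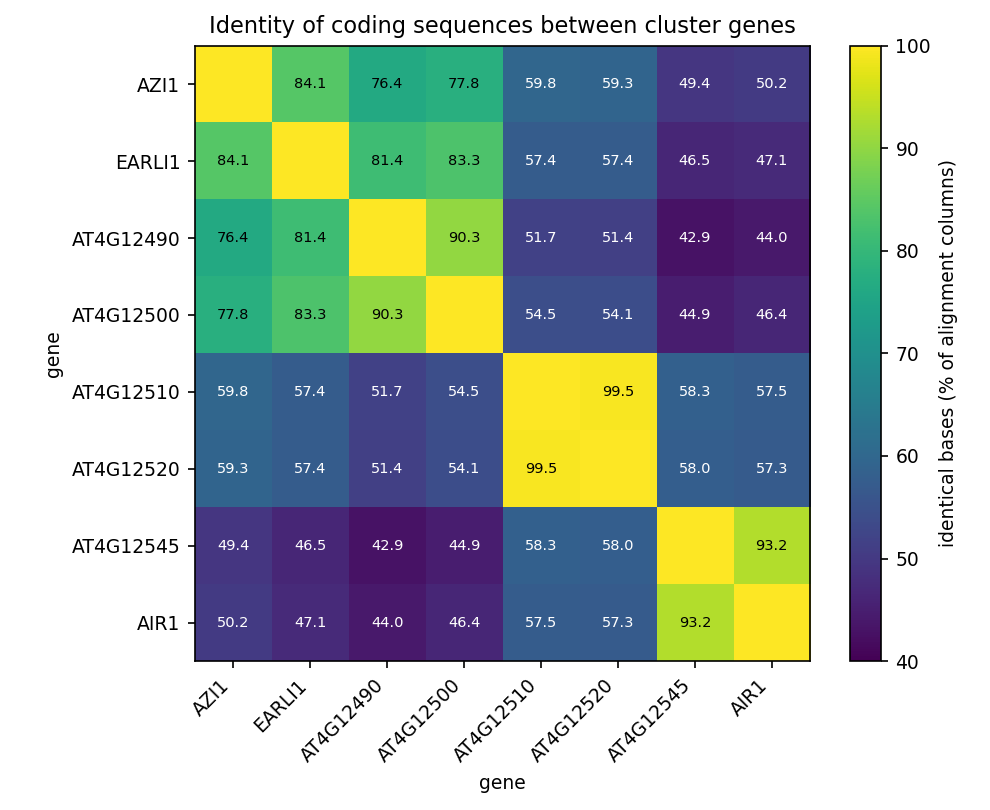
Identity of the coding sequences of the 8 cluster genes, as the percent of alignment columns with the same base, for each pair of genes (both axes list the genes in order along the chromosome; the colour scale runs from 40 to 100%). The 4 pairs of closest relatives, next to the diagonal, reach 84.1, 90.3, 99.5 and 93.2%, and the AZI1-type genes form a block at 76.4% and above.

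The sequences before the genes resembled each other less evenly. In the 300 bases before the start codon, AT4G12510 and AT4G12520 were 99% identical and AT4G12545 and AIR1 85.0%. AZI1 and EARLI1 were 60.2% identical there, and AT4G12490 and AT4G12500 54.9%. AT4G12500 was closer in this stretch to EARLI1 (66.7%) and to AZI1 (60.8%) than to AT4G12490. Between members of different groups the identity ran from 46.4% to 54.1%. The promoters of the genes with the largest differences in level are shown because their pairs moved in opposite directions. They are the 250 bases before each annotated start in RefSeq, TAIR10.1, all on the minus strand: chr4:7401952-7402201 for AZI1, chr4:7406995-7407244 for EARLI1, chr4:7417874-7418123 for AT4G12510 and chr4:7421829-7422078 for AT4G12520. Capitals mark exact runs of at least 12 bases that a gene shares with the other gene of its pair:
AZI1 promoter: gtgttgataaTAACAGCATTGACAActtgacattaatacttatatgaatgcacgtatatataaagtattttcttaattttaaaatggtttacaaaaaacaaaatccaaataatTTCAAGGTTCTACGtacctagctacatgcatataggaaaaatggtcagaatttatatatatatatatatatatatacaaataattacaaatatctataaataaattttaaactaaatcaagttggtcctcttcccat
EARLI1 promoter: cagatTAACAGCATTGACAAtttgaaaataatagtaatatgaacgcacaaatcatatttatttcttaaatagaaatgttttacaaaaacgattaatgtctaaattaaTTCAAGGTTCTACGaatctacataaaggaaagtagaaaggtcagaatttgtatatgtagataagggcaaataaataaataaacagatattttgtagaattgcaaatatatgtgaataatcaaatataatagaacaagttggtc
AT4G12510 promoter: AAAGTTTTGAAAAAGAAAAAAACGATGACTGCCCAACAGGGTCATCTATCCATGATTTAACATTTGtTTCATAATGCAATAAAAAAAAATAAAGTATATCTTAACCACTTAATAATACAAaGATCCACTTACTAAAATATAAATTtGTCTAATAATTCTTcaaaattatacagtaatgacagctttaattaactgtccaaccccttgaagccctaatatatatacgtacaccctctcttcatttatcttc
AT4G12520 promoter: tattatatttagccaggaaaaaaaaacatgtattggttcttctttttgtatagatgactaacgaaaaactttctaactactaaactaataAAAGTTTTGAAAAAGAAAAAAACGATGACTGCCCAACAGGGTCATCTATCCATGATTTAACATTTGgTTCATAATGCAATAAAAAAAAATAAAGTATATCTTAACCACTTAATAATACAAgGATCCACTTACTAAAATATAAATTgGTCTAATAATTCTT

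AZI1 and EARLI1 shared 29 of the 250 bases in such runs, with a longest run of 15 bases. AT4G12510 and AT4G12520 shared 157 bases, with a longest run of 66, and the shared stretch sits at different distances from the start because the annotated starts differ. The core of the W-box, TTGAC on either strand, which WRKY factors can bind, occurred in 6 of the 8 promoters of 250 bases and in 44.9% of 27443 Arabidopsis promoters of that length. AZI1 held it at 232 and at 224 bases before the start, EARLI1 at 237, AT4G12490 at 150, AT4G12500 at 74, AT4G12545 at 102 and AIR1 at 100. The ACGTG core of abscisic acid response elements occurred in AZI1 and AT4G12500 and in 22.9% of all promoters, and TGACG, the as-1 core, in AT4G12500, beside and overlapping its ACGTG match, and in 18.6%. The GCC box core GCCGCC (1.87% of all promoters), the G-box CACGTG (6.49%), the dehydration-responsive core CCGAC (12%) and the auxin response element TGTCTC (10.9%) were not found in any of the 8 windows on either strand. These matches describe letters in the windows and were not tested for binding. Annotated starts differ among the AZI1-type genes too: a stretch of bases that ends the EARLI1 window lies farther inside that of AT4G12490. Positions and absences of matches are therefore not directly comparable between members.

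Near-identical genes can share reads, and how multi-mapped reads were counted is not given in the sources used here. Of the windows of 100 bases within the RefSeq transcripts, 48.4% of those of AT4G12510 and 55.5% of those of AT4G12520 had an exact copy elsewhere in the genome, each in the other gene of the pair, and the other 6 members had none. At 50 bases the shares were 51.8% and 58.1% for that pair, 11.9% for AT4G12545, 11.4% for AIR1, 6.78% for AT4G12490, 5.45% for AT4G12500 and 0 for AZI1 and EARLI1. The separate values of AT4G12510 and AT4G12520 are therefore uncertain, and the value summed over the pair stands beside them below. Read length is not given in the sources used here. The lengths behind the authors' RPKM were 565 bases for AT4G12510 and 679 for AT4G12520, against 806 and 878 in RefSeq. The shared part of the sequence that was counted can therefore differ from these shares.

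Total counts ran from 38042437 (DMSO replicate 4) to 54818801 (MBZ replicate 1) per library. Of 20867 genes tested with edgeR's quasi-likelihood test, 13877 or 66.5% were called at an adjusted p of 0.05 (Benjamini-Hochberg), 32.9% higher and 33.6% lower with MBZ. The median log2 fold change over all tested genes was 0.00. All 9 root markers were detected, from 1.69 counts scaled to library size (CPM) for the cortex gene AT1G62500 in MBZ to 13995 CPM for PYK10 in DMSO, and 4 were called higher and 5 lower. Of 6 green tissue markers, 5 were lower with MBZ and none was higher, at 0.148 to 34.3 CPM, and the part of these shifts in the results on the cluster was not tested. In bulk RNA, a change in the number of cells of a type and a change in RNA per cell cannot be told apart. The labels do not say that the libraries of a group came from separate plants or cultures, so errors and p-values measure the spread between these libraries.

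All 8 members passed the filter on low counts and all were called, 4 higher and 4 lower with MBZ, where 66.5% of all tested genes were called. At least 2-fold differences were called for AZI1 and EARLI1 among genes that were higher (3.89% of all tested genes) and for AT4G12510 and AT4G12520 among genes that were lower (3.9%). In 7 of the 8 members the MBZ and DMSO libraries did not overlap in RPKM (reads per kilobase of gene, scaled to library size), as in 62.9% of all genes with an RPKM value, and the same 7 did not overlap in CPM, as in 59.0% of all tested genes. Because the members were proposed from this contrast, nothing is read from these counts. Levels below are the authors' RPKM, and fold changes are edgeR's from the raw counts, on the log2 scale with the standard error (SE).

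**Figure D2:**
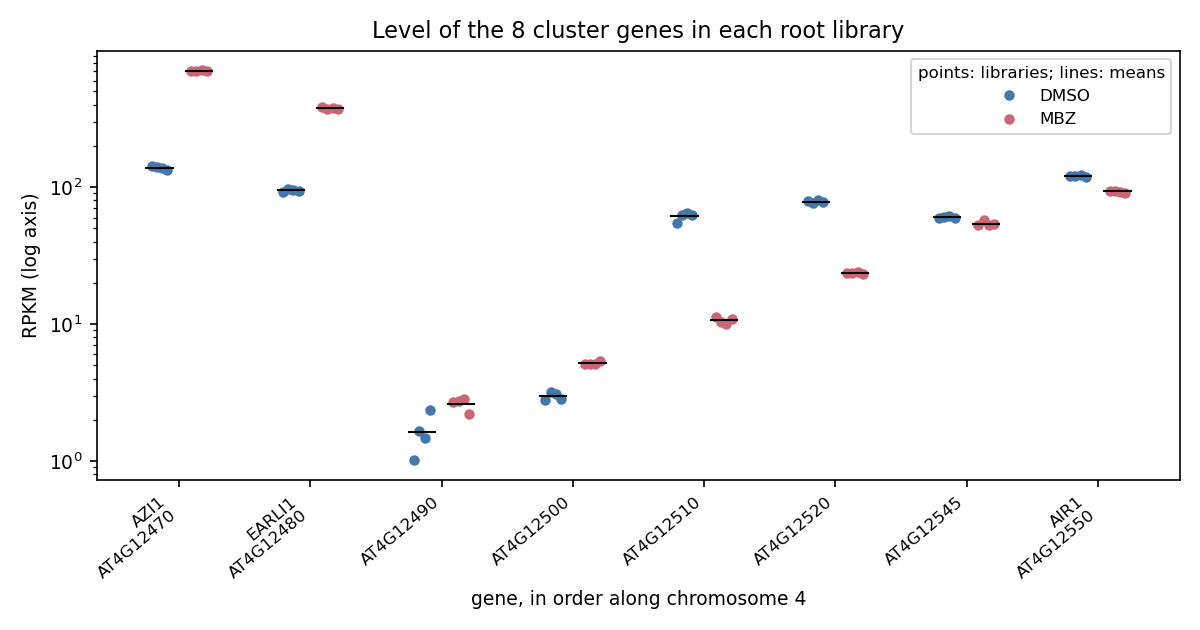
RPKM of each cluster gene in each of the 8 root libraries (log axis), with DMSO in blue, MBZ in red, points for libraries and lines for group means. AZI1 stood at 133 to 143 RPKM in DMSO and 703 to 714 in MBZ, AT4G12510 at 54.6 to 65.0 in DMSO and 10.0 to 11.3 in MBZ, and in AT4G12490 alone the groups overlapped.

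AZI1 had 143, 141, 138 and 133 RPKM in DMSO replicates 1 to 4 and 707, 707, 714 and 703 RPKM in MBZ replicates 1 to 4. Every MBZ library lay far above every DMSO library, and the 4 MBZ libraries were closer to each other in relative terms than the DMSO libraries. The means were 139 ± 4.54 and 708 ± 4.63 RPKM (SD, n = 4), a log2 fold change of 2.37 ± 0.017 (SE). Its size was above that of 98.8% of all tested genes. Among the genes of the RPKM table it stood at percentile 95.1 in DMSO and at percentile 99.6 in MBZ.

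EARLI1, its closest relative in the row, had 92.6, 97.0, 95.3 and 94.0 RPKM in DMSO and 387, 372, 381 and 369.9 RPKM in MBZ. The groups did not overlap, and no library stood apart from its group. The means were 94.7 ± 1.88 and 378 ± 8.18 RPKM (SD, n = 4), with a log2 fold change of 2.01 ± 0.019 (SE), which was 0.35 below that of AZI1. The count ratio of AZI1 to EARLI1 was 1.35 to 1.49 in the DMSO libraries and 1.75 to 1.82 in the MBZ libraries, and the ranges did not overlap. Summed, the pair held 188 ± 3.73 CPM with DMSO and 880.0 ± 9.14 CPM with MBZ, and its log2 fold change was 2.23 ± 0.015 (SE).

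AT4G12490 and AT4G12500 share the proline-rich type of AZI1 and EARLI1 but stood at percentiles 3.8 and 10.3 of RPKM in DMSO. These ranks are among the genes of the RPKM table, which holds 17872 of the 33602 genes counted. AT4G12490 had 1.01, 1.66, 1.48 and 2.35 RPKM in DMSO and 2.69, 2.74, 2.86 and 2.22 RPKM in MBZ. DMSO replicate 4 lay above MBZ replicate 4, so the groups overlapped. The log2 fold change was 0.75 ± 0.15 (SE) on 40 to 70 counts in DMSO and 69 to 115 in MBZ. The coefficient of variation over the DMSO libraries was 34.2%, where counting alone gives 13.0%.

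AT4G12500 had 2.81, 3.2, 3.11 and 2.82 RPKM in DMSO and 5.12, 5.11, 5.09 and 5.42 RPKM in MBZ. The groups did not overlap, and MBZ replicate 4 was the highest. The log2 fold change was 0.81 ± 0.10 (SE) on 83 to 129 and 167 to 217 counts. Against the reads of AZI1, the counts of AT4G12500 amounted to 1.91 to 2.21% in DMSO and 0.694 to 0.751% in MBZ, and those of AT4G12490 to 0.694 to 1.75% and 0.31 to 0.394%. Neither gene therefore held a fixed share of the AZI1 counts. A changing share cannot show whether part of their reads came from AZI1, and this was not tested. Together the genes of this pair reached 3.56 ± 0.45 CPM with DMSO and 6.1 ± 0.0997 CPM with MBZ, without overlap, and the log2 fold change was 0.79 ± 0.085 (SE).

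AT4G12510 and AT4G12520 are the members that were lower by more than 2-fold, and both encode the shorter type with few prolines. AT4G12510 had 54.6, 62.7, 65.0 and 62.1 RPKM in DMSO and 11.3, 10.3, 10.0 and 10.9 RPKM in MBZ. DMSO replicate 1 was the lowest of its group and still far above the highest MBZ library. The means were 61.1 ± 4.47 and 10.6 ± 0.589 RPKM (SD, n = 4), and the log2 fold change was -2.50 ± 0.052 (SE).

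AT4G12520 had 78.8, 76.6, 80.8 and 77.6 RPKM in DMSO and 23.8, 23.6, 23.9 and 23.2 RPKM in MBZ, with both groups tight and far apart. The means were 78.4 ± 1.8 and 23.6 ± 0.332 RPKM (SD, n = 4), and the log2 fold change was -1.71 ± 0.035 (SE). The difference between the log2 fold changes of the pair was -0.79 for AT4G12510 minus AT4G12520. The count ratio of AT4G12510 to AT4G12520 was 0.577 to 0.68 in DMSO and 0.349 to 0.396 in MBZ, and with the shared windows given above it is uncertain how much of this ratio belongs to either gene. The sum of the pair does not depend on how reads were divided between them, but it would lack or repeat shared reads that had been dropped or counted for both. It was 87.3 ± 2.78 CPM with DMSO and 22.2 ± 0.371 CPM with MBZ. That is 3.93-fold lower, or -1.98 ± 0.030 (SE) on the log2 scale. DMSO replicate 1 also had the lowest AT4G12490 and the lowest ratio of AT4G12510 to AT4G12520.

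AT4G12545 and AIR1 lie on the plus strand beyond a gap of 12370 bp and changed least in size. AT4G12545 had 59.3, 60.2, 61.2 and 59.9 RPKM in DMSO and 52.9, 57.2, 53.2 and 53.5 RPKM in MBZ. MBZ replicate 2 was the highest of its group, yet below every DMSO library. The log2 fold change of -0.14 ± 0.032 (SE) was larger than that of only 38.1% of all tested genes.

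AIR1 had 119.7, 121, 122 and 118 RPKM in DMSO and 93.5, 94.5, 92.5 and 91.4 RPKM in MBZ. The groups did not overlap, and each spanned only a few RPKM. The means were 120.4 ± 1.76 and 93.0 ± 1.3 RPKM (SD, n = 4), with a log2 fold change of -0.36 ± 0.024 (SE). Summed over AT4G12545 and AIR1 the level ranged from 120.1 to 123 CPM with DMSO and from 98.5 to 103 CPM with MBZ, a log2 fold change of -0.28 ± 0.021 (SE).

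In DMSO the order of the RPKM levels was AZI1, AIR1, EARLI1, AT4G12520, AT4G12510, AT4G12545, AT4G12500 and AT4G12490. The libraries of AT4G12510 (54.6 to 65.0 RPKM) and AT4G12545 (59.3 to 61.2 RPKM) overlapped, and all other neighbours in that order were separate. In MBZ the order was AZI1, EARLI1, AIR1, AT4G12545, AT4G12520, AT4G12510, AT4G12500 and AT4G12490, with all neighbours separate. The gene lengths behind the authors' RPKM differ from RefSeq transcript lengths, for instance 565 against 806 bases for AT4G12510. Per kilobase of RefSeq transcript, AT4G12510 stood at 42.8 CPM and AT4G12545 at 59.8 CPM in DMSO, and AT4G12520 at 60.7 CPM, so the middle of the DMSO order depends on the length used. AZI1 was first and AT4G12490 last on either length.

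The make-up of the transcripts from the row was a mixture in DMSO and mostly AZI1 and EARLI1 in MBZ. The 8 genes together summed to 399.9 ± 5.03 CPM (SD, n = 4) with DMSO and to 1008 ± 9.15 CPM with MBZ. As a share of the summed RPKM, AZI1 and EARLI1 made up 41.8 ± 0.76% in DMSO and 85.2 ± 0.249% in MBZ. AT4G12510 and AT4G12520 made up 25 ± 0.692% and then 2.69 ± 0.042%. AT4G12545 and AIR1 made up 32.3 ± 0.094% and then 11.5 ± 0.256%. The summed RPKM behind these shares was 558 ± 8.5 in DMSO and 1275 ± 11.5 in MBZ. AT4G12490 and AT4G12500 stayed under 1% in every library.

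**Figure D3:**
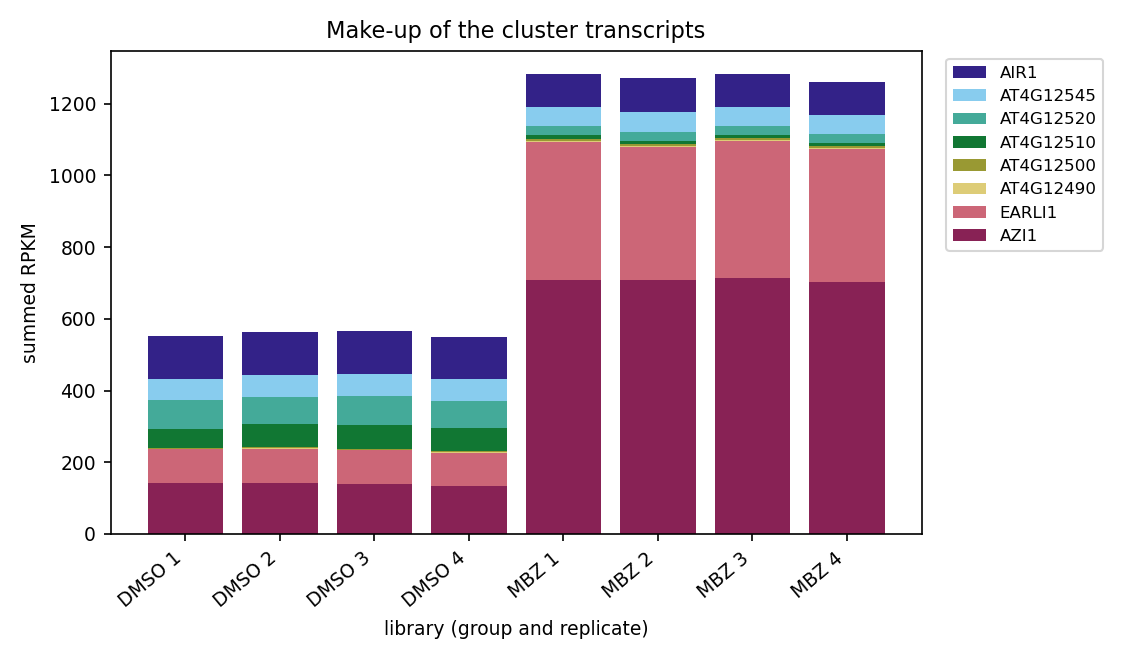
RPKM of the 8 cluster genes stacked for each library, with 1 bar per library and 1 colour per gene (axis from 0). Bars sum to 549.6 to 567 RPKM in the DMSO libraries and to 1259.6 to 1284 RPKM in the MBZ libraries, where AZI1 and EARLI1 fill 84.8 to 85.4% of the bar.

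The tested genes beside and between the members did not share the size of the changes of the 6 members on the minus strand. AT4G12545 and AIR1, at -0.14 and -0.36 on the log2 scale, changed less in size than the neighbour AT4G12450 (0.41). Of 14 rows of the count table, which are the 6 nearest on each side and the 2 between members, 10 could be tested, and their log2 fold changes ran from -0.18 to 0.41 with a median of -0.12. In edgeR's test 6 of the 10 were called, 2 higher and 4 lower, against 66.5% of all tested genes. To the left of AZI1, ORP2B, which encodes an oxysterol-binding-related protein, was lower, at -0.17 on the log2 scale (SE 0.024, edgeR adjusted p = 2.15e-09), and AT4G12450, a C2H2 zinc finger gene, was higher by 0.41 (SE 0.056, edgeR adjusted p = 4.52e-10). To the right of AIR1, CPR1, an F-box gene known as a negative regulator of immune receptors, was at 69.2 ± 1.73 CPM with DMSO and 69 ± 1.53 CPM with MBZ (SD, n = 4; edgeR adjusted p = 0.948). Beyond it, UPL5, a ubiquitin ligase gene, was lower, at -0.15 on the log2 scale (SE 0.028, edgeR adjusted p = 2.57e-06). AT4G12590 and AT4G12600 were lower by 0.10 and 0.13 on the log2 scale, and APT4 and AT4G12580 did not pass the threshold at -0.18 and -0.14. APT4 did pass it, at -0.17 to -0.20, with limma on RPKM. RAP74 was higher by 0.06 (edgeR adjusted p = 0.0231), a call lost under upper-quartile factors (0.03), library size alone (0.04) and limma on RPKM (0.04), and without DMSO replicate 2 (0.04) or MBZ replicate 1 (0.06).

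Between the 2 strands of the row lie AT4G12530, itself a gene of the same superfamily, and AT4G12540. AT4G12530 had 7 to 18 counts in the DMSO libraries and 3 to 8 in the MBZ libraries and was not tested. AT4G12540 did not pass the threshold, at -0.09 on the log2 scale (SE 0.13, edgeR adjusted p = 0.52). AT4G12423, AT4G12426 and TPPF, the outermost rows on the left, had at most 1 count in any library.

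**Figure D4:**
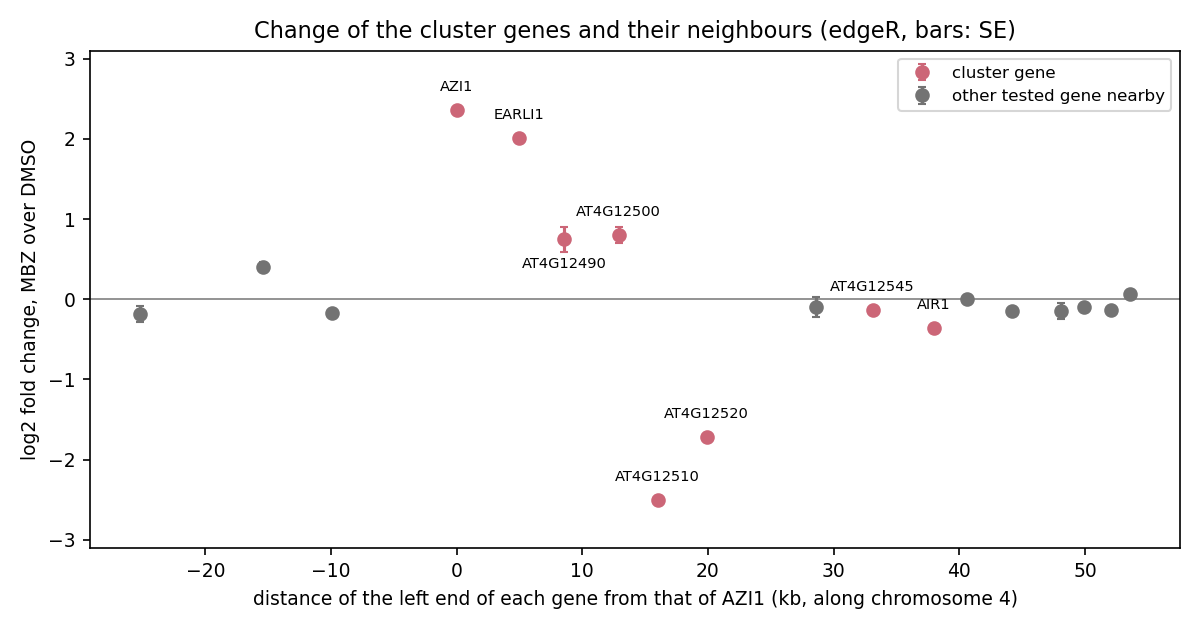
Log2 fold change (MBZ over DMSO, bars for SE) of the cluster genes in red and of the tested neighbours in grey, against the distance of the left end of each gene from that of AZI1 in kb. The 4 leftmost cluster genes lie above 0, AT4G12510 and AT4G12520 at -2.50 and -1.71, and the neighbours between -0.18 and 0.41.

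AZI1 works with other proteins of the azelaic acid and glycerol-3-phosphate branch of systemic resistance, and these were examined as a list of 10 genes. Of its 9 tested genes, 5 or 55.6% were called, 2 higher and 3 lower, against 66.5% of all tested genes, and the median log2 fold change was -0.02 against 0.00. The glycerol kinase gene NHO1 fell from 261 ± 3.53 to 203 ± 0.57 CPM (SD, n = 4; log2 fold change -0.36, edgeR adjusted p = 2.21e-35). The mitogen-activated protein kinase gene MPK3 rose from 85.8 ± 3.21 to 104 ± 1.13 CPM (log2 fold change 0.28, edgeR adjusted p = 4.58e-20). The galactolipid synthase gene DGD1 and the plasmodesmal gene PDLP1 fell by 0.35 and 0.44 on the log2 scale (edgeR adjusted p = 2.02e-12 and 2.21e-06). DIR1, the lipid transfer protein gene that acts beside AZI1 in systemic resistance, had 5 to 12 counts in DMSO and 2 to 12 in MBZ (log2 fold change -0.20 ± 0.42, edgeR adjusted p = 0.689). The log2 fold changes of the tested genes of this list ran from -0.44 to 0.28, with that of DIR1 uncertain on its few counts. AZI1 was chosen with its change known, so its size is not compared with theirs.

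In the list for the pipecolate and salicylate branch, 10 of 11 tested genes of 12 were called, or 90.9% against 66.5% of all tested genes, 5 higher and 5 lower, with a median log2 fold change of 0.06. PAD4, a lipase-like immune regulator, rose from 19.5 ± 0.579 to 49.9 ± 1.27 CPM (log2 fold change 1.36, edgeR adjusted p = 1.45e-55), and its partner EDS1 rose by 0.46 (edgeR adjusted p = 6.24e-27). ALD1, the aminotransferase of pipecolate synthesis, fell from 4.49 ± 0.374 to 0.545 ± 0.12 CPM (log2 fold change -3.04, edgeR adjusted p = 5.49e-35), and PBS3, which acts in salicylate synthesis, fell by 1.45 (edgeR adjusted p = 1.02e-13). On log2(RPKM + 1), where the added 1 shrinks changes of low genes, ALD1 stood at -1.55 and PBS3 at -0.58. Thus the genes of this branch moved in both directions while AZI1 and EARLI1 were higher. The 3 other genes named AIR, described as induced by auxin in root cultures, were all called lower, where 33.6% of all tested genes were: AIR3 with -0.22, AIR9 with -0.30 and AIR12 with -0.23 on the log2 scale.

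The wider superfamily of 2S albumin and lipid transfer proteins, under whose name RefSeq lists the members other than AZI1 and AIR1, had 112 other genes, of which 46 could be tested. Of these, 7 were called higher and 29 lower, 78.3% in all against 66.5% of all tested genes, and the median log2 fold change was -0.47. A 2-fold rise was called for 2 of the 46 and a 2-fold fall for 8, where 3.89% and 3.9% of all tested genes had such calls. AT2G45180 on chromosome 2, 64.6% identical to AT4G12510 in coding sequence, rose from 5.92 ± 0.361 to 26.8 ± 0.425 CPM (log2 fold change 2.17, edgeR adjusted p = 2.02e-57), next to 2.01 and 2.37 for EARLI1 and AZI1. On chromosome 5, AT5G46890 fell from 133 ± 4.1 to 9.32 ± 0.744 CPM (log2 fold change -3.84, edgeR adjusted p = 2.84e-92) and AT5G46900 from 127 ± 4.2 to 10.8 ± 1.4 CPM (log2 fold change -3.55, edgeR adjusted p = 1.94e-87). Those coding sequences were 62.3% and 60.0% identical to AT4G12510 and 97.4% identical to each other, so their reads may be shared. AT4G22460, elsewhere on chromosome 4 and 62.2% identical to AT4G12520, fell from 15.4 ± 0.793 to 3.31 ± 0.324 CPM (log2 fold change -2.22, edgeR adjusted p = 3.86e-48). These 4 genes were each closer to AT4G12510 or AT4G12520 than to the other members, and 1 of them rose and 3 fell. Smaller rises were called for AT1G05450 (log2 fold change 0.50, edgeR adjusted p = 6.26e-06) and AT4G00165 (0.36, edgeR adjusted p = 0.0496). The call of AT4G00165 was lost under 4 other settings, among them DESeq2 (0.37), and without DMSO replicate 3 or 4 or MBZ replicate 1 or 3 (0.21 to 0.40). AT4G22490, named after its values were seen, had 0 to 7 counts in DMSO and 11 to 21 in MBZ (log2 fold change 2.25, edgeR adjusted p = 1.43e-05). AT2G10940, also named after its values were seen, had the largest fall among the tested genes of the list, on few counts. It had 12 to 27 counts in DMSO and 0 to 2 in MBZ (log2 fold change -4.42, edgeR adjusted p = 1.73e-10). AT1G62500, which is also among the root markers, fell by 0.40 (edgeR adjusted p = 0.00428). DIR1 is counted in this superfamily too.

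**Figure D5:**
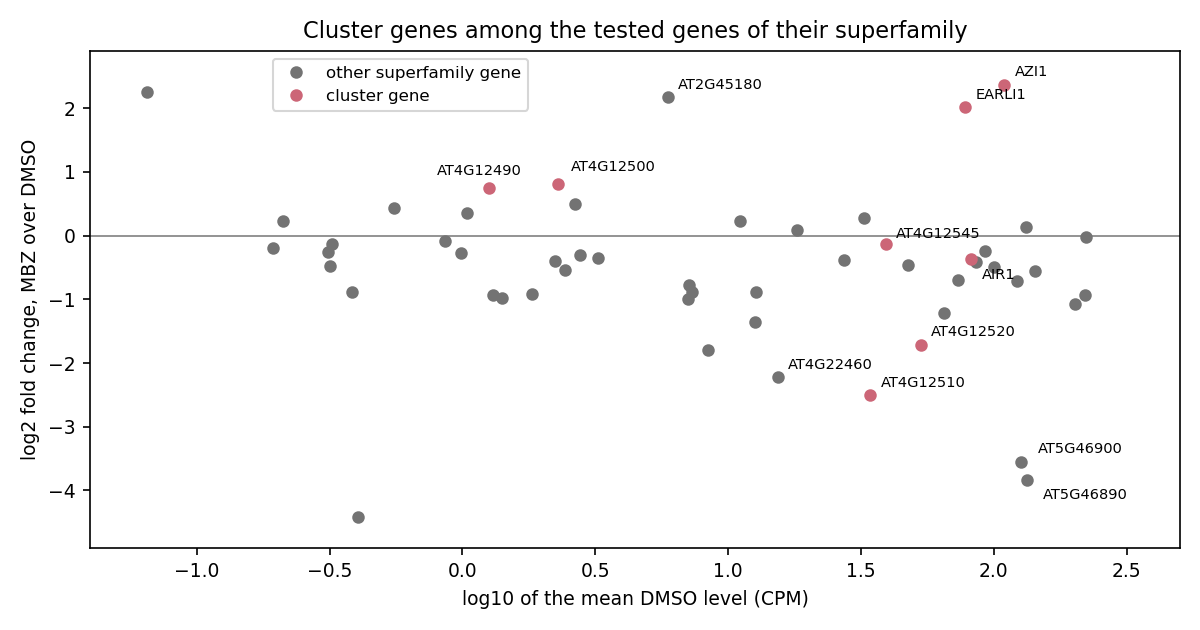
Log2 fold change (MBZ over DMSO) against the log10 of the mean DMSO level in CPM for the 8 cluster genes in red and the 46 other tested genes of their superfamily in grey. AZI1, EARLI1 and AT2G45180 lie above 2, as does AT4G22490, an unlabelled point at the far left with at most 7 counts in any DMSO library. AT4G12510 and AT4G12520 lie above AT5G46890 and AT5G46900, which fell by 3.84 and 3.55. The lowest point, unlabelled at -4.42, is AT2G10940, with at most 2 counts in any MBZ library.

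The genes whose pattern over the 8 libraries was most like that of AZI1 were found by the root mean square distance between log2 CPM values centred on their means, among 18917 genes whose mean was 50 counts or more and which had no library at 0. The 5 nearest were AT5G62280 (distance 0.0369 log2 units), AT3G50010 (0.0469), AO (0.0623), XTH26 (0.0624) and PYL5 (0.0669), with log2 fold changes of 2.28 to 2.41. AO encodes L-aspartate oxidase, XTH26 a xyloglucan-modifying enzyme of the cell wall and PYL5 an abscisic acid receptor. With 0.5 added to each CPM value, 2 of these 5 were still among the 5 nearest. EARLI1 was farther from AZI1, at 0.182. The genes most like AIR1 were AT1G19660 (0.0117), the ascorbate peroxidase gene APX1 (0.0129), AT4G24160 (0.014), LCR68 (0.0162) and the beta-tubulin gene TUB6 (0.0168), with AT4G12545 at 0.114. All 5 were also the nearest with 0.5 added. These distances describe 2 groups of 4 libraries and mostly reflect the size of the difference between them.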

How the data were processed

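Root RNA of 4 DMSO and 4 MBZ libraries was analysed. Groups follow the sample titles, since the column names of the MBZ libraries hold DMSO, 4h and SM but not the drug. The authors deposited raw counts for 33602 genes and RPKM for 17872 of them. The submitters' processing notes name STAR 2.7.0a, edgeR 3.36.0 and TAIR10, without their roles. The counting program, strand setting, treatment of multi-mapped reads and read length are not given in the sources used here.

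The members, the gene lists and the tests were chosen with earlier results of these data known. Raw counts were tested with edgeR 4.0.16 (R 4.3.3): TMM factors, filterByExpr (20867 genes kept), the quasi-likelihood test with group as the only factor, and Benjamini-Hochberg adjustment over all tested genes at 0.05. SE was derived from each log2 fold change and its F statistic (change over root F). Paralogs were also summed and refitted. Alternatives used DESeq2 1.42.0, limma 3.58.1 on log2(RPKM + 1) and log2(RPKM + 0.1), other factors and filters, a replicate block, and leaving out each library. The script was tested on simulated data.

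Symbols, positions and sequences come from RefSeq, TAIR10.1, matched to 32835 of the 33602 identifiers. Lengths implied by the RPKM values matched RefSeq exon lengths within 1% for 7.03% of 17859 genes, so the gene models behind the counts differ from those shown. Equal replicate numbers did not deviate together (correlations from -0.02 to -0.00942 over genes). Named genes are the members, the 14 neighbouring rows, up to 4 genes per list with the smallest p (for the superfamily up to 3 rises and 3 falls with the largest fold among genes with a mean of at least 50 counts), DIR1 and AT1G62500, and the 5 genes most alike to AZI1 and to AIR1. The SE values cover these libraries only, since the labels do not say that the libraries of a group came from separate plants or cultures. No molecular identifiers for the reads are named in the labels.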

Additional observations from a re-analysis of the deposited data

Results flagged for a closer look

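Among 26 groups of 4 libraries examined for the members, their summed pairs and the cluster total, 3 held a library whose gap to its nearest neighbour in CPM exceeded the 95% critical value of Dixon's test. Chance gives about 5% of groups. For AT4G12500, MBZ replicate 4 was high at 5.42 RPKM against 5.09 to 5.12 in the other 3, with a gap in CPM of 0.906 of the CPM range. For AT4G12545, MBZ replicate 2 was high at 57.2 RPKM against 52.9 to 53.5, with a gap in CPM of 0.876 of the CPM range. That library still lay below every DMSO library. For AT4G12510 and AT4G12520 summed, MBZ replicate 1 was high, with a gap of 0.95 of a range that ran from 22.0 to 22.7 CPM. No cause was tested.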

How the results depend on the processing

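All 192 alternative values of the log2 fold changes of the 8 members and 4 summed pairs kept their direction and their side of the threshold. Under each of the 17 alternatives 4 members were called higher and 4 lower, where 66.5% of all tested genes were called in the main fit. The refits reuse the libraries from which the members were proposed, so they describe only the dependence on processing. AT4G12490 moved most, from 0.57 to 0.94 when 1 library was left out and from 0.49 to 0.76 under the others. Genes called in all numbered 13877, with 12312 to 14176 under other settings and 13356 to 13596 with 1 library left out. Of 651 values for 39 other named genes, 628 kept their direction and side. AT4G22490 and AT2G10940 were not among these 39. The 2 neighbours called higher became 1 under upper-quartile factors, library size alone and the 3 RPKM settings, and 1 to 2 with 1 library left out (1 without DMSO replicate 2 or without MBZ replicate 1), RAP74 being lost. In the pipecolate and salicylate list 5 genes were called lower, 4 with limma on RPKM, 3 when it also required a mean of at least 1 RPKM, 4 at a mean of at least 50 counts, and 4 without DMSO replicate 2 or MBZ replicate 4. The neighbours called lower numbered 4 to 5. With 1 library left out, DIR1 had a value in only 4 of the 8 fits, from -0.35 to 0.09, and was above 0 without MBZ replicate 2. CPR1 ran from -0.02 to 0.01 over all 8 such fits, at 0.00 or above in 4 of them. Neither DIR1 nor CPR1 was called in these fits. The remaining changes of call were those of AT4G00165, RAP74 and APT4. For the genes most like AZI1, an offset of 0.5 CPM, added after seeing the data, kept 2 of 5. Upper-quartile factors moved the all-gene median by -0.029 on the log2 scale. The replicate block gave 13786 genes called, and no library correlated best with its own number. For AT4G12490 and DIR1, counts under 120 limit the precision.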
